A study of Homo sapiens with 6 samples.

Results

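The loops described here are those of 4 human cytokine gene clusters in HAP1 cells. Of the 46849 chromatin loops listed for this cell line, 69 (0.147%) had at least 1 anchor in 6 windows laid over the clusters. The CXC chemokine cluster had 17 loops in its windows on chromosome 4 (hg19, 74.55 to 75 Mb and 76.90 to 77.00 Mb). The CC chemokine cluster had 5 loops on chromosome 17 (32.55 to 32.72 Mb and 34.18 to 34.65 Mb). The type I interferon cluster had 21 loops on chromosome 9 (21.05 to 21.50 Mb). The cluster from IL5 through RAD50 and IL13 to IL4, with its neighbours, had 26 loops on chromosome 5 (131.30 to 132.10 Mb). Chemokine windows are called by the first and last of their genes in the known order of the families. The chromosome 5 window is called IL5 to IL4 for its cytokine genes, although it is wider than they are and where in it each gene lies was not determined. No window was without an anchor, and no loop belonged to more than 1 cluster.

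HAP1 is a near-haploid human line that grows attached and comes from KBM-7, a line of chronic myeloid leukaemia. The study measured its contacts by Micro-C, a form of Hi-C that cuts chromatin with micrococcal nuclease, in 6 libraries of wild-type HAP1 cells, sorted for a diploid DNA content, that form 1 group; nothing says whether they were separate cultures. The loop list was made from the libraries together, so there is no spread between replicates and no test between conditions. Loops share libraries and anchors and are not replicates, so the clusters are compared by counts and medians beside those of all loops, and no test of those differences is given. Intervals (95%) of counts and loops per Mb cover counting error only. Those of medians come from the ranked loops and treat loops as separate draws, although loops share anchors.

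These gene families encode signals between immune cells, and they grew by tandem duplication. CXC chemokines such as CXCL1, CXCL2 and CXCL8 draw neutrophils to inflamed tissue, while CXCL9, CXCL10 and CXCL11 are induced by interferon and attract T cells through the receptor CXCR3. CC chemokines include CCL2, which attracts monocytes, CCL11, which attracts eosinophils, and CCL5, which attracts T cells. IFNB1 and the IFNA genes encode antiviral type I interferons, which are switched on by transcription factors of the IRF family. IL4 and IL13 drive the type 2 response of helper T cells, IL5 supports eosinophils, and in mouse T cells a locus control region within Rad50 contacts the promoters of the cytokine genes. Which of the genes HAP1 cells transcribe was not analysed here.

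The gene order in the GRCh38 RefSeq table shows how tightly the families are packed. From CXCL8 to CXCL2 the table lists 9 protein-coding genes, all of them CXC chemokine genes, among them the platelet genes PF4 and PPBP. From IFNB1 to IFNE it lists 17, of which 16 are interferon genes and the other is KLHL9, a ubiquitin ligase adaptor. From IL3 to IL4 it lists 11, in the order IL3, CSF2, P4HA2, PDLIM4, SLC22A4, SLC22A5, IRF1, IL5, RAD50, IL13 and IL4, so the transcription factor gene IRF1 stands next to IL5. The loop positions are in hg19 and no hg19 annotation was used, so no anchor is assigned to a gene.

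Promoter sequences from RefSeq (GRCh38.p14, 250 bases before to 50 after each gene start) were found for 39 of 51 genes listed for the clusters. The listed genes include IRF1 and RAD50. Each of 2 motifs was found in only 1 of the CXC windows, in which 8 and 3 genes were searched. Both strands were searched for each motif of 10 bases. A form of the NF-kB site (GGG and TTTCC with any 2 bases between them) was found for 5 of 8 genes of the CXCL8 to CXCL2 window. It was found for none of the genes searched in the other windows, against 2.33% of all 27305 genes. Promoters were missing, and so not searched, for CCL2 and CCL11, and for CCL5, CCL16, CCL14, CCL4 and CCL4L2. Those of PF4, IFNW1, IFNA16, IFNA6 and IL5 were missing too. The matches are shown because they lie 78 to 91 bases before the start in all 5 genes. The flanks fall into those of CXCL1, CXCL2 and CXCL3 and those of CXCL5 and CXCL6. Capitals mark the motif, and each line gives the GRCh38 position and strand.
CXCL1 (chr4:73869289-73869348, + strand): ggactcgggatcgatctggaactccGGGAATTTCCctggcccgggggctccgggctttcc
CXCL2 (chr4:74099239-74099298, - strand): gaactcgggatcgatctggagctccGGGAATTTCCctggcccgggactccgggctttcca
CXCL3 (chr4:74038734-74038793, - strand): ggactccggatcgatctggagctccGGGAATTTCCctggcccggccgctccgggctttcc
CXCL5 (chr4:73998734-73998793, - strand): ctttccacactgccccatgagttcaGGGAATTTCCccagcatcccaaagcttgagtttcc
CXCL6 (chr4:73836563-73836622, + strand): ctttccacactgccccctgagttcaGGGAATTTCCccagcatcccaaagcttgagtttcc

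An IRF-type motif (GAAA and GAAA with any 2 bases between them) was found for CXCL9 and CXCL10 of the 3 genes in the other CXC window. It was also found for 2 of 13 interferon genes and for IL4, against 4.38% of all genes. In the CC windows it was found for none of the genes searched, 4 of 6 from CCL2 to CCL1 and 5 of 10 from CCL5 to CCL4L2. The motifs can share the letters TTTC, but no listed gene held both. The CXCL9, CXCL10, IFNA1 and IFNA13 matches are shown, the chemokine ones because that window lacked the other motif and the interferon ones because the genes are near-copies, with the motif in capitals.
CXCL9 (chr4:76007646-76007705, - strand): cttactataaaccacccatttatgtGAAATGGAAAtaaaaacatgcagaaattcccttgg
CXCL10 (chr4:76023684-76023743, - strand): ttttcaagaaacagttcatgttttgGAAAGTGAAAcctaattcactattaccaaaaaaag
IFNA1 (chr9:21440330-21440389, + strand): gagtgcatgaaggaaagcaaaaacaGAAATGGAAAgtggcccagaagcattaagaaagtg
IFNA13 (chr9:21368126-21368185, - strand): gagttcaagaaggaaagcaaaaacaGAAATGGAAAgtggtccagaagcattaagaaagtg

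A match is a description and no proof of binding, and no match says only that these letters are not in the window searched. Some duplicated genes are also close in sequence. Among 13 interferon promoters the median identity over 78 pairs was 68.2%, with 94.1% for IFNA21 and IFNA10 and at least 90% in 4 pairs. CCL3 and CCL3L3 reached 90.8%, and CXCL5 and CXCL6, which both held the NF-kB form, 83.1%. Matches in such copies are not independent of each other. Reads from near-identical copies are hard to place, and no source used here says how the authors treated such reads.

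The clusters differed in how many loops they held for their size. The interferon window held 46.7 loops per Mb (exact Poisson interval 28.9 to 71.3), the IL5 to IL4 window 32.5 (21.2 to 47.6) and the CXC windows 30.9 (18.0 to 49.5). The CC windows held 7.81 loops per Mb (2.54 to 18.2). For comparison, all chromosomes were tiled, from about their first to their last anchor, with windows of the same sizes. Tiles without a loop were kept, whatever the reason they held none, and made up 8.78% of the 450 kb tiles. The interferon window had 21 loops against a median of 10 in all 450 kb tiles, and 8.99% of tiles held as many or more. The IL5 to IL4 window had 26 loops against 17 in all 800 kb tiles, where 19.4% held as many or more. The CXCL8 to CXCL2 window had 11 loops, near the median of 10 for all 450 kb tiles. The CXCL9 to CXCL11 window had 6 against 2 in all 100 kb tiles, where 19.4% held as many or more. In the CC cluster the window of CCL2 to CCL1 had 3 loops against 4 in all 170 kb tiles, and that of CCL5 to CCL4L2 had 2 loops against 11 in all 470 kb tiles, of which 16% held as few or fewer.

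**Figure D1:**
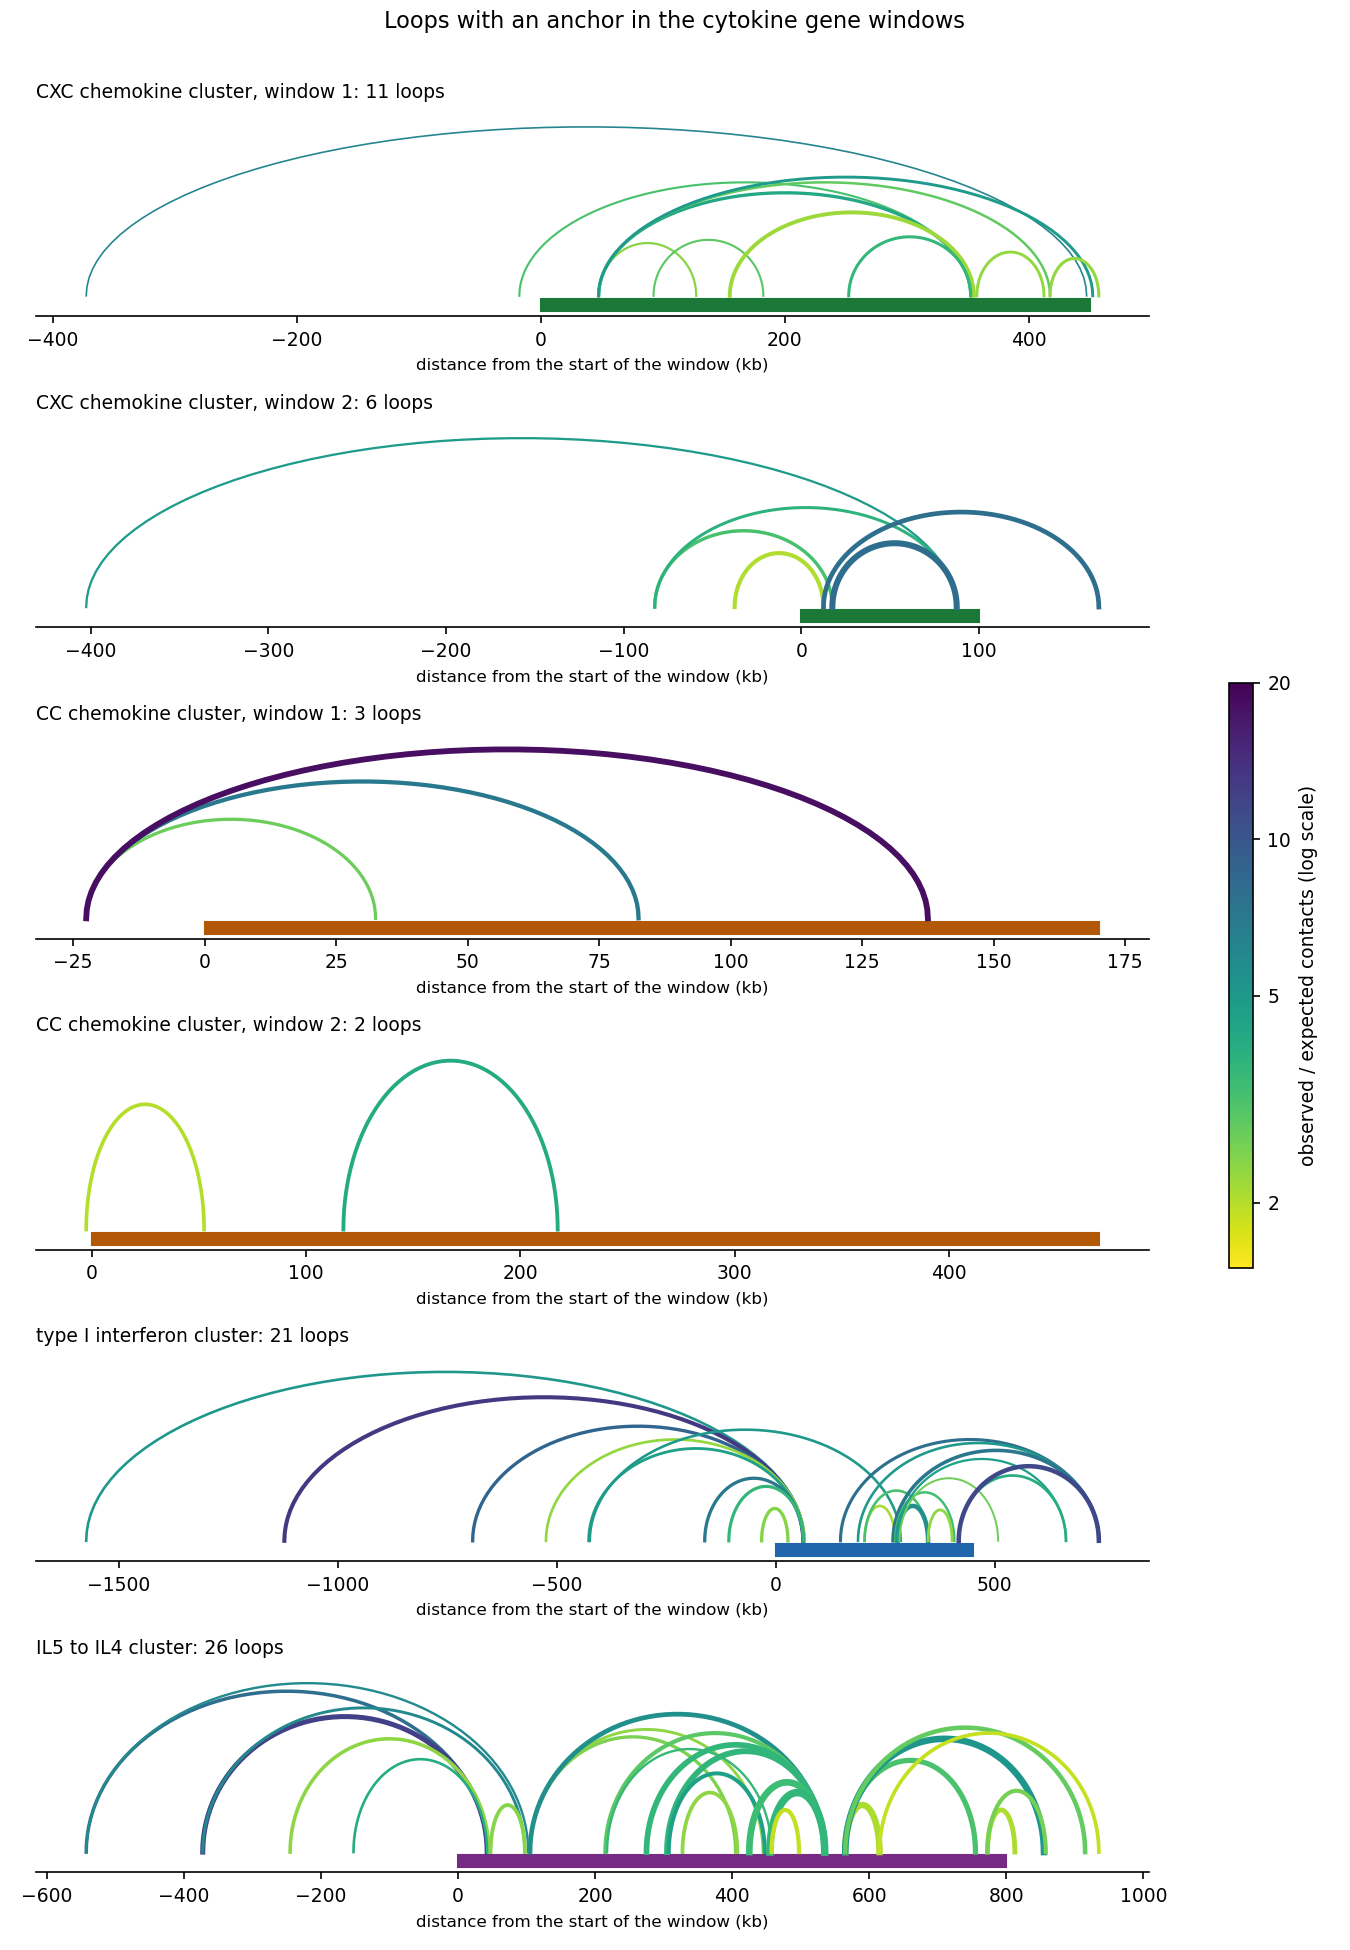
Arcs join the anchors of each of the 69 loops, against the distance from the start of the window in kb (coloured bar: the window; CXC windows 1 and 2 are those of CXCL8 to CXCL2 and of CXCL9 to CXCL11, CC windows 1 and 2 those of CCL2 to CCL1 and of CCL5 to CCL4L2). Arc colour is the ratio of observed to expected contacts on a log scale, line width grows with the observed count, and arc height only separates the arcs; the IL5 to IL4 loops form separate groups side by side, and the CCL5 to CCL4L2 window has 2 loops.

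The median reach of the loops varied between the clusters, with wide intervals. The median span between anchor midpoints was 320 kb in the interferon cluster (interval 145 to 590 kb), 250 kb in the IL5 to IL4 cluster (110 to 320 kb) and 155 kb in the CXC cluster (80 to 370 kb), against 160 kb over all loops. The intervals overlap, and each holds the median of all loops. With 5 kb anchors alone the interferon median was 235 kb, against 130 kb over all loops. The 5 CC loops spanned 55 to 160 kb. A wider window holds both anchors of more loops, so these shares are set beside loops in all tiles of the same width. Both anchors lay inside the window for 5 of 21 interferon loops (23.8%) and 7 of 11 loops of the CXCL8 to CXCL2 window (63.6%), against 36.2% in all 450 kb tiles. They did so for 15 of 26 IL5 to IL4 loops (57.7%), against 52.1% in all 800 kb tiles. The smaller sets were 1 of 6 loops of the CXCL9 to CXCL11 window, 0 of 3 of the CCL2 to CCL1 window and 1 of 2 of the CCL5 to CCL4L2 window, against 7.92%, 15.8% and 37.3% in all tiles of their widths. Of the interferon loops 16 of 21 left the window, reaching up to 1640 kb. No loop joined the CXC windows with each other, which lie 1900 kb apart, and none joined the CC windows, which lie 1460 kb apart. Loops of that length are few: of 46849 in the list, 266 spanned at least 1900 kb and 629 at least 1460 kb. How often other windows this far apart are joined was not counted.

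Loop strength is given as the ratio of the observed contact count to the count expected from the ring around the pixel (the donut). The median ratio was 4.62 in the interferon cluster (interval 3.18 to 7.09), 4.11 in the CC cluster (5 loops, 2.01 to 18.1), 3.28 in the IL5 to IL4 cluster (2.39 to 4.05) and 3.20 in the CXC cluster (2.37 to 4.86), against 3.55 over all loops. Longer loops had higher ratios in the whole list: with 5 kb anchors the median was 2.36 at 35 kb and 5.14 at 320 kb. Each loop was therefore also set against all loops of the same anchor width and like span, on a log2 scale. The median difference was 0.38 for the CC cluster (range -0.42 to 2.09), with 1.15 in the CCL2 to CCL1 window and -0.02 in the CCL5 to CCL4L2 window. The median difference was 0.02 for IL5 to IL4 (interval -0.16 to 0.45), -0.16 for CXC (-0.26 to -0.03) and -0.20 for interferon (-0.33 to 0.44). Of the CXC loops 4 of 17 lay above the median of like loops, of the interferon loops 9 of 21, of the CC loops 3 of 5 and of the IL5 to IL4 loops 14 of 26. The sign for IL5 to IL4 was not stable, at -0.10 with the lower-left expectation and -0.14 with 5 kb anchors alone. The interferon cluster's higher median ratio thus stood beside a longer median span, and the intervals of both held the medians of all loops.

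**Figure D2:**
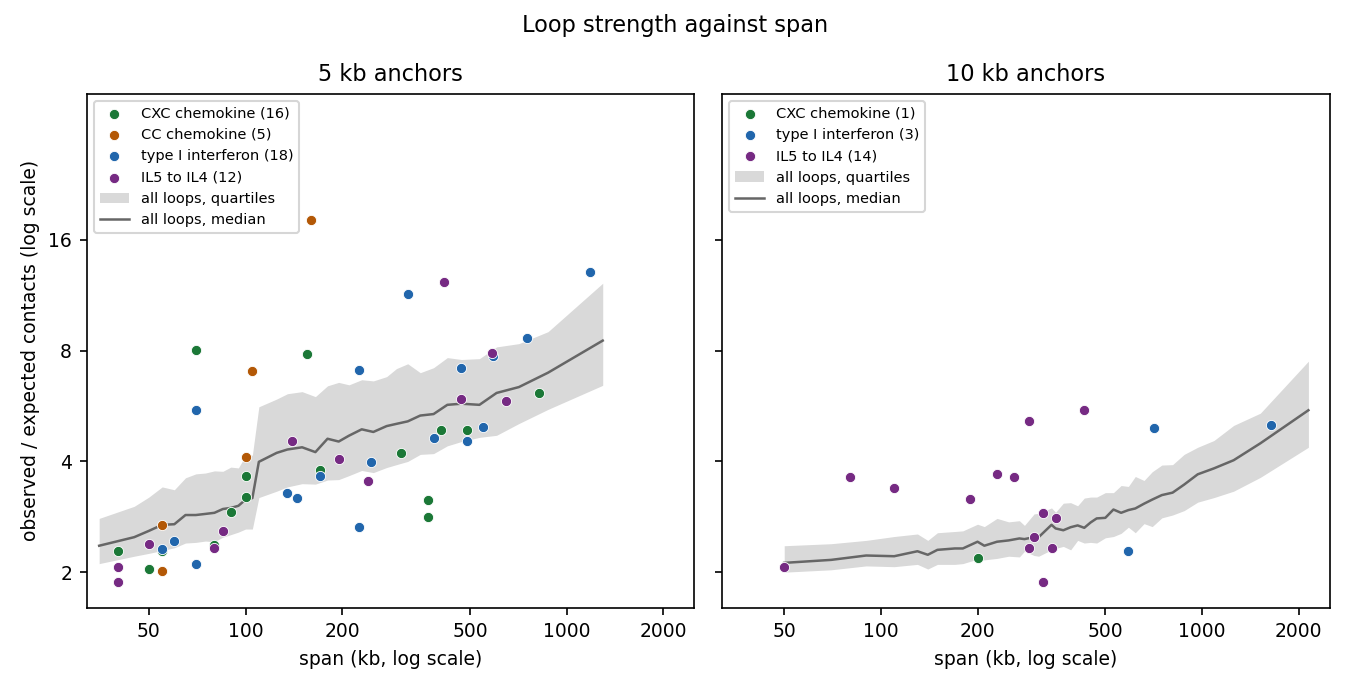
The ratio of observed to expected contacts of each cluster loop (coloured points, number in brackets) is plotted against span in kb, both on log scales, for loops with 5 kb and with 10 kb anchors. The grey line and band are the median and quartiles of all loops by span; of the 69 points 30 lie above the median of their span bin, and the highest is the CC loop of 160 kb with a ratio of 18.1.

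Contact counts behind the loops had their highest median in the IL5 to IL4 cluster, through its loops with 10 kb anchors. Its loops had a median of 39 observed contacts (interval 29 to 60, range 16 to 212), against 31 over all loops. The CC loops had a median of 33 (25 to 90), the CXC loops 22 (interval 15 to 27, range 11 to 101) and the interferon loops 20 (interval 18 to 26, range 13 to 46). Anchor width enters here, since 53.8% of the IL5 to IL4 loops had 10 kb anchors, against 15.2% of all loops, and a 10 kb pixel covers more of the map. Within 5 kb anchors the medians were 33 for CC, whose 5 loops all had this width, 32 for IL5 to IL4, and 32 for all loops. Within 10 kb anchors they were 60 for the 14 IL5 to IL4 loops and 29 for all loops, and the expected count of these 14 was 0.41 higher on the log2 scale than that of loops of like span. The expected count was lower than that of like loops in the interferon cluster (-0.29, log2, interval -0.50 to 0.04) and the CXC cluster (-0.26, interval -0.64 to 0.06). In the CC cluster it was -0.58 (range -0.62 to 0.06). There the median was -0.62 for the 3 loops of the CCL2 to CCL1 window, which share an anchor. It was -0.08 for the 2 loops of the CCL5 to CCL4L2 window.

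**Figure D3:**
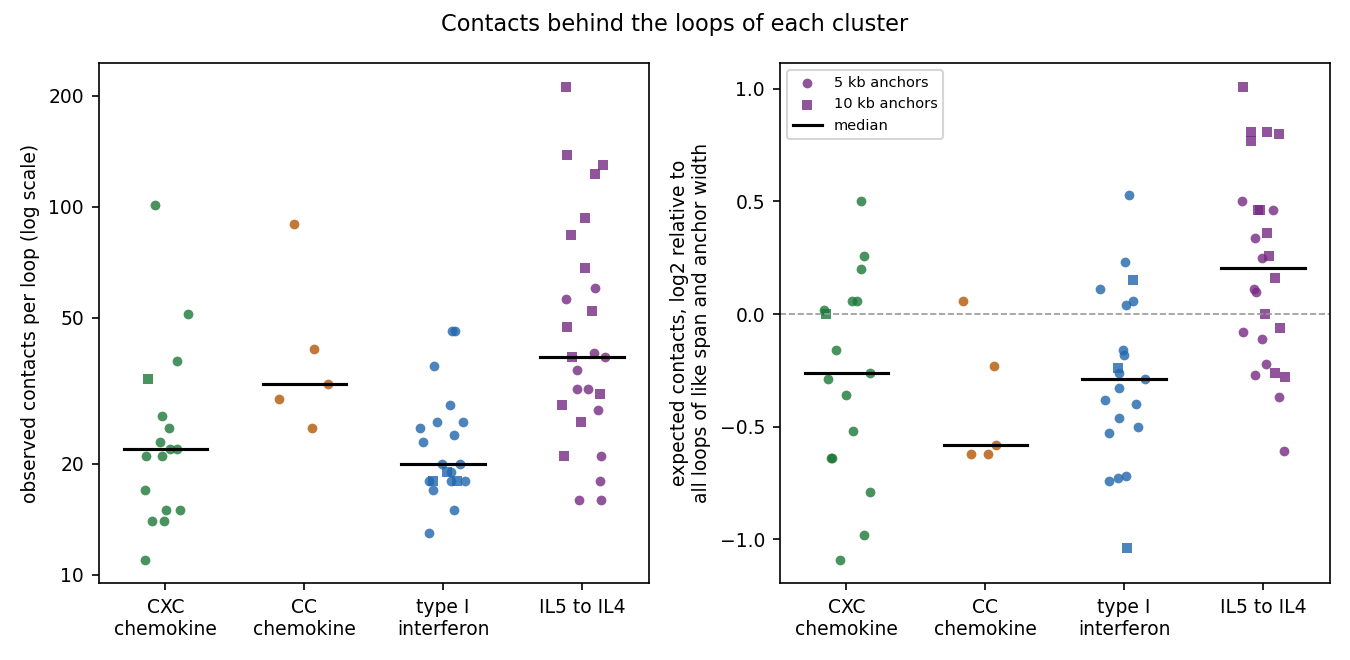
Left, observed contacts of each loop on a log scale; right, its expected contacts relative to all loops of like span and anchor width (log2, dashed line at 0). Points are loops, squares have 10 kb anchors, bars are medians; the IL5 to IL4 loops reach the highest counts (212) and 16 of 26 lie above the line, against 6 of 17 CXC, 6 of 21 interferon and 1 of 5 CC loops.

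The IL5 to IL4 window was divided into 3 sections that no loop joined. Its loops fell into a lower group of 7 that reached up to 131405000, a middle group of 12 between 131400001 and 131840000, and an upper group of 7 from 131860001 on. The upper break was the sharpest. The anchor at 131830001 to 131840000 held 6 loops, all to lower coordinates, and the next anchor, at 131860001 to 131870000, held 4 loops, all to higher coordinates. No loop in the list crossed the 20 kb between them, nor the anchors themselves. Of all gaps between neighbouring anchors 3.79% were crossed by no loop, and 1.02% lay between anchors that each held at least 3 loops turned away from the other in this way. Such divergent neighbours are thus uncommon but numbered 483 in the list.

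The middle group held the loop with the most contacts in the 4 clusters. The anchor at 131830001 to 131840000 was joined to 131750001 to 131760000 by 212 contacts (exact Poisson interval 184 to 243) where 58.6 were expected. It was joined to 131720001 to 131730000 by 138 contacts (ratio 3.39), to 131600001 to 131610000 by 93 (ratio 3.69) and to 131570001 to 131580000 by 84 (ratio 3.63). The ladder went on to 131510001 to 131520000 with 39 contacts and to 131400001 to 131410000, 430 kb away, with 52. Counts did not decline evenly with distance along this ladder. The farthest rung had a ratio of 5.53, at the 98.0 percentile of loops of like span, while the rung before it had one of 2.90. All 6 loops had 10 kb anchors, and all 6 had ratios above the median of like loops, by 0.22 to 1.07 on the log2 scale. Of the loops that ended elsewhere, those with both anchors inside and the most contacts had 5 kb anchors, with 36 contacts from 131605001 to 131745001 (ratio 4.54) and 40 from 131755001 to 131795001 (ratio 1.88).

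The upper group ran from 131860001 to 131870000 towards higher coordinates. Its strongest loop reached 132150001 to 132160000, 290 kb away and beyond the window, with 130 contacts against 25.3 expected. That ratio of 5.14 was the highest among 223 loops of like span. The other 3 loops of the anchor went to 131910001 to 131920000 with 123 contacts (ratio 2.07), to 132050001 to 132060000 with 68 (ratio 3.17) and to 132210001 to 132220000 with 47 (ratio 2.80). Every one of the 7 upper loops had an expected count above that of like loops, by 0.26 to 1.01 on the log2 scale, against 7 of 12 in the middle group and 2 of 7 in the lower group.

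The lower group was thinner and reached farther. Its best supported loop joined 130925001 to 130930000 with 131340001 to 131345000, 415 kb apart, with 60 contacts where 4.90 were expected (ratio 12.3). That ratio stood at the 96.4 percentile of loops of like span. The next by ratio joined 130755001 with 131340001 over 585 kb by 28 contacts (ratio 7.89, 72.7 percentile) and 130925001 with 131395001 over 470 kb by 21 (ratio 5.90, 53.5 percentile). Of the 5 loops of the merged anchor at 131340001 to 131350000, 4 ran to lower coordinates. The longest loop of the cluster, from 130755001 to 131405000, spanned 645 kb with 16 contacts (ratio 5.84). It ended at the merged anchor at 131400001 to 131410000, which held 4 loops, 1 to lower and 3 to higher coordinates, and which no loop crossed. The lower and middle groups thus met at this anchor.

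The interferon cluster turned in opposite directions at its lower end. The anchor at 21110001 to 21120000 held 7 loops, all to lower coordinates, and 99.2% of all merged anchors held that many or fewer. They spanned 170 to 1640 kb, with 18 to 37 contacts each. The strongest joined 19925001 to 19930000 with 37 contacts, 1185 kb away (ratio 13.1), and the next joined 20355001 to 20360000 with 26 (ratio 8.64). Both ratios stood at the 78.0 percentile of loops of like span. The longest joined 19470001 to 19480000 over 1640 kb with 18 contacts (ratio 5.02, 66.5 percentile). Single loops of this fan are known loosely, since 18 contacts have an exact Poisson interval of 10.7 to 28.4.

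Above that anchor the loops ran the other way. The 75 kb from 21120001 to 21195000 held no anchor and was crossed by 1 loop. That loop joined 20620001 to 20630000 with 21330001 to 21340000 by 18 contacts in a single pixel. Gaps crossed by 1 loop or none made up 10.8% of all gaps between neighbouring anchors. Of the 12 loops wholly above the gap, 7 left the window, all towards higher coordinates, and 5 stayed inside it.

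Most loops that left the window upwards met at a shared place outside it. The anchor at 21785001 to 21790000 received 4 of the 7, from 21195001, 21235001, 21315001 and 21465001, with 23, 18, 29 and 46 contacts. All 7 loops of this outer anchor came from lower coordinates, and no loop crossed the 30 kb from 21785001 to 21815000. The loop from 21465001 to 21470000 was the strongest of the 4, with a ratio of 11.4 at a span of 320 kb (92.8 percentile of like loops). Inside the window the best supported loop joined 21325001 to 21330000 with 21395001 to 21400000, 70 kb apart, by 46 contacts over 13 merged pixels (ratio 5.51). The other 4 inner loops had 17 to 20 contacts and ratios of 2.11 to 3.28.

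**Figure D4:**
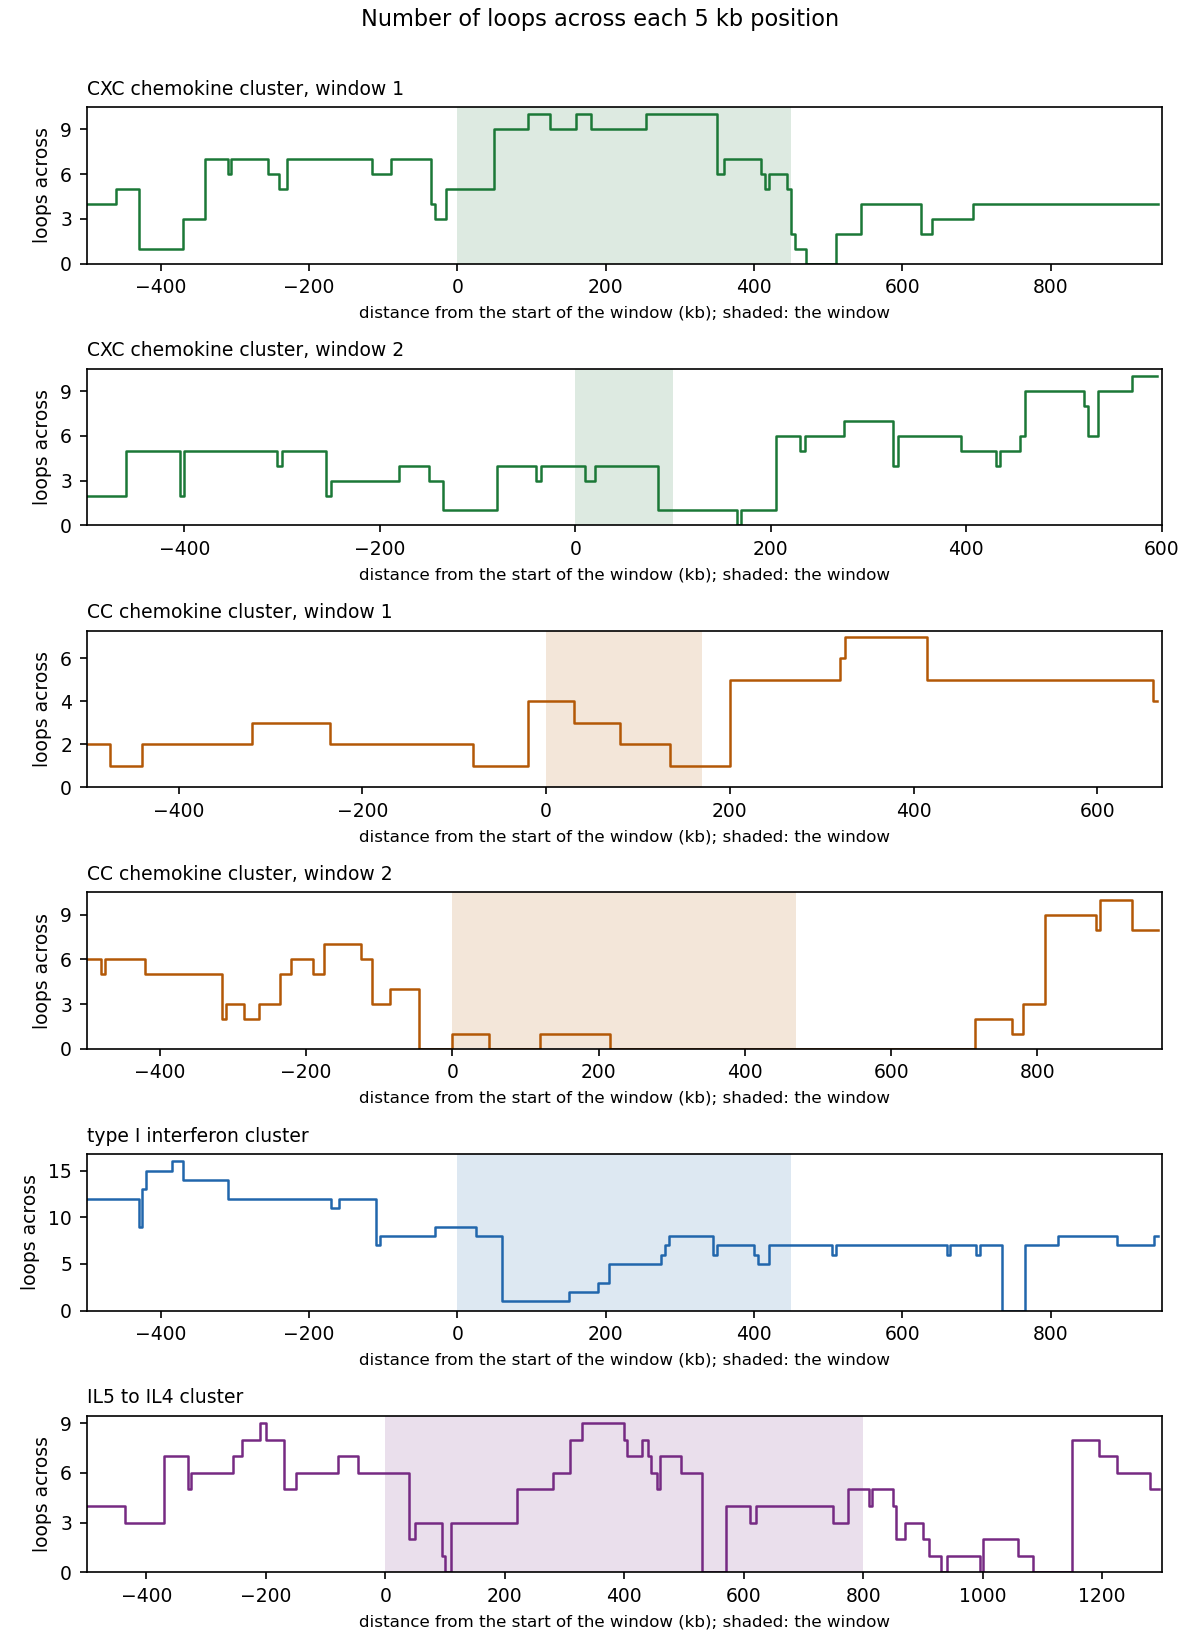
The number of loops whose anchors lie on either side of each 5 kb position is plotted against distance from the start of the window in kb, with the window shaded. It is 0 at 2 places in the IL5 to IL4 window and over 69.1% of the CCL5 to CCL4L2 window, 1 at its lowest in the interferon window, and 5 to 10 throughout the CXCL8 to CXCL2 window.

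Of the 6 windows, that of CXCL8 to CXCL2 lay under the most loops. Each of its 5 kb positions lay under 5 to 10 loops (median 9), whereas the median over all positions was 4 and 12.8% were crossed by none. Of its 11 loops 9 formed a chain through shared anchors. The anchor at 74595001 to 74600000 sent 4 loops to higher coordinates, over 80 to 405 kb with 15 to 25 contacts. The anchor at 74900001 to 74910000 had 14 to 34 contacts in each of 5 loops, 4 of which ran to lower coordinates. The loop between these anchors had 25 contacts at 305 kb (ratio 4.22). Another 3 loops passed over the whole window, the narrowest from 74530001 to 75005000 with 28 contacts (ratio 5.89). The next position crossed by no loop began at 75020001, 20 kb above the window.

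Contacts per loop were few here. They numbered 11 to 34, and 3 of its 11 loops had all 4 q-values of the authors' deposited table at or below 0.1, against 72.0% of all loops. The other clusters were nearer to that share, with 19 of 26 for IL5 to IL4, 14 of 21 for interferon and 4 of 5 for CC. The loop with the highest ratio there, 6.13, was also the longest of the cluster at 820 kb, and it rested on 11 contacts (exact Poisson interval 5.49 to 19.7). Its largest q-value in the authors' deposited table was 0.239. The loop with the highest count joined 74700001 to 74710000 with 74900001 to 74910000 by 34 contacts (ratio 2.19). Among the loops with both anchors inside, that from 74595001 to 74965001 stood lowest against loops of like span (17 contacts, ratio 2.82, 1.2 percentile), and the remaining ones had 14 to 25 contacts and ratios of 2.28 to 4.22.

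The CXCL9 to CXCL11 window held strong and weak loops side by side, with a median of -0.07 (log2) against loops of like span and 3 of 6 above 0. Anchors at 76915001 to 76920000 and 76985001 to 76990000 were joined by 101 contacts over 16 merged pixels, where 12.6 were expected. This ratio of 8.03 at 70 kb stood at the 96.7 percentile of like loops. A neighbouring loop from 76910001 to 76915000 to 77065001 to 77070000 had 51 contacts (ratio 7.84, 84.1 percentile). From the same anchor a loop of 50 kb to 76860001 had 38 contacts but a ratio of 2.04, at the 6.28 percentile, and the loop of 490 kb from 76495001 to 76985001 had 15 (ratio 4.87, 32.2 percentile). The anchor at 76985001 to 76990000 held 3 loops, all to lower coordinates, with 15, 22 and 101 contacts. Together with the anchor at 76815001 to 76820000, these anchors formed the 1 closed triangle of the CXC cluster, in which each of 3 anchors is joined to the others. Its sides had 27, 22 and 101 contacts. By the same count the interferon cluster had 7 closed triangles, all with the anchor at 21110001, the IL5 to IL4 cluster 3 and the CC cluster 0. The other anchors of the interferon triangles all lay below the window, so each had a side that was not a loop of the cluster. The IL5 to IL4 triangle at 132070001, 132110001 and 132150001 also had such a side, above its window. The number of triangles in the whole list is not given here, so these counts have no share beside them.

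The CC chemokine loops were few, and 1 was among the strongest of its length. The window of CCL2 to CCL1 held 3 loops that all came from the same anchor just below it, at 32525001 to 32530000. They reached 32580001 with 25 contacts (ratio 2.68), 32630001 with 41 (ratio 7.05) and 32685001 with 90 (exact Poisson interval 72.4 to 111, ratio 18.1). The ratio was higher the farther the loop reached, over spans of 55, 105 and 160 kb. Against loops of like span it stood at the 49.2, 91.8 and 99.2 percentiles. A loop of 2330 kb passed over the window, with 44 contacts against 0.335 expected. Ratios rise with span in the list, and how this loop ranks among loops of like span is not given here.

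The window of CCL5 to CCL4L2 was nearly empty. Its 2 loops joined 34175001 with 34230001 by 30 contacts (ratio 2.01) and 34295001 with 34395001 by 33 (ratio 4.11). They shared no anchor with each other or with any other loop, whereas 89.7% of all loops shared an anchor, and 16 of 17 CXC, 20 of 21 interferon and 26 of 26 IL5 to IL4 loops did. Of its 10 bins of 50 kb, 7 held no anchor, against 44.4% of all such bins. In bins of 25 kb, 16 of its 19 held none, against 64.9% of all. From 34400001 to 34890000 there was no anchor at all, a stretch of 490 kb that runs 240 kb beyond the window. Of all gaps between neighbouring anchors 0.739% were as long. In the GRCh38 table the genes towards this end of the family include CCL3, CCL4, CCL3L3 and CCL4L2 with TBC1D3B among them, but their hg19 positions were not used here. Read coverage of the stretch was not analysed here.

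Window edges mattered most for the CC cluster. Just outside its windows lay an anchor at 34135001 to 34140000, whose 4 loops all pointed down the chromosome with 24 to 176 contacts, and an anchor at 32740001 to 32750000, whose 4 loops ran to higher coordinates with 17 to 33. Within 50 kb of the windows, 8 more loops had an anchor beside the CC cluster, 8 beside the CXC cluster, 2 beside IL5 to IL4 and none beside the interferon cluster. At the upper edge of the CXCL8 to CXCL2 window, the anchor just inside, 74995001 to 75000000, had the loop of 11 contacts. The anchor just outside, 75000001 to 75005000, had loops of 16, 21 and 28 contacts, of which the loop of 21 counts as a CXC loop through its other anchor.

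Anchors with 5 or more loops numbered 1 of 13 in the CXC cluster, 1 of 13 in the interferon cluster and 2 of 17 in IL5 to IL4, against 6.71% of all merged anchors, and the 6 CC anchors held 1 loop each. Anchors with loops in both directions numbered 4 of 13, 3 of 13 and 4 of 17 in these clusters, against 20.3% of all. Loops of a single pixel made up 5 of the 69, against 8.94% of all loops, and loops under 100 kb 19 of the 69, against 36.3%.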

How the data were processed

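Micro-C was done on 6 libraries of sorted diploid HAP1 cells, fixed with 1% formaldehyde for 10 min and 3 mM DSG for 45 min, per the labels' protocols. The authors deposited 1 loop list for all libraries. It was read as hg19, which the submitters' processing notes name together with BWA, and per the file headers it comes from juicer_tools version 1.22.01. The deposited values are the observed contact count of each loop's pixel, the expected signal from 4 surroundings on the same scale, the caller's q-values, and the number of merged pixels. Library depths, pooling and caller settings are not stated in the sources at hand.

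A loop was a member when an anchor overlapped a window by at least 1 bp. Overlapping anchors were merged before counting. Like loops had the same anchor width and span bin (40 bins). Intervals of medians are order-statistic ones, with the range given for 5 loops. The list holds no loop under 8 contacts or a donut ratio of 1.75, so weaker contacts are not listed. A gap or position counted as crossed when both anchors of a loop lay outside it, on opposite sides. Promoters were aligned globally. Python 3.11.15, numpy 2.4.6, pandas 2.3.3, scipy 1.17.1, Biopython 1.88 and matplotlib 3.10.9 were used. Member counting, anchor merging, the comparison with like loops and the intervals of medians were tested on partly simulated data. Crossing counts, tiles, triangles and the promoter searches were not tested in this way. Windows, gene lists and motifs were chosen with earlier results of these data known. In clusters of more than 5 loops, those named were the 5 of highest count, the 3 of highest ratio, the 2 longest and up to 10 with both anchors inside. Anchors named were the 3 with most loops per cluster, if they held at least 3. Others named, the gaps, the uncrossed positions, the sections, the triangles and the tiles were chosen after the values were seen. Alternatives changed the windows, loops, bins, merging and expectation.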

Additional observations from a re-analysis of the deposited data

How the results depend on the processing

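Of 82 alternative values, 73 lay inside the 95% interval of the reported one (the range for the CC medians) or within 1.5 times the count, and 9 lay outside. The sign turned for the median ratio of the IL5 to IL4 loops relative to like loops, 0.02 as reported, which was -0.10 with the lower-left expectation and -0.14 with 5 kb anchors alone, both inside its interval. These 73 include every median (span, ratio, ratio and expectation relative to like loops) and every share of loops with a shared anchor. Some of the 73 could not have moved. Window edges fall on edges of the 5 and 10 kb bins, so asking for whole anchors returned the same loops. All 5 CC loops had 5 kb anchors, and a median over some of the CC loops cannot leave their range. With each q-value of the authors' deposited table at or below 0.1 the CXC cluster kept 8 of its 17 loops. With windows widened by 50 kb the CC cluster had 13 loops against 5. With 5 kb anchors alone the IL5 to IL4 cluster had 12 against 26. In bins of 25 kb, which number about 2 for each bin of 50 kb, those without an anchor were 9 and 2 in the CXC windows (2 and 0 in 50 kb bins), 4 and 16 in the CC windows (1 and 7), 9 in the interferon window (1) and 16 in the IL5 to IL4 window (4), and over the whole list 64.9% of 25 kb bins held none, against 44.4% of 50 kb bins. The intervals of clusters of 17 to 26 loops are wide, and the 5 CC loops allow no interval of a median. No paired analysis was possible because the 6 libraries form 1 group and the list does not tell them apart. For the same reason no library could be left out. What limits the depth of single loops is the contact count, 11 to 212 here.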
